A study of Mus musculus with 24 samples.

Results

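Heparan sulfate is a long sugar chain carried by a small set of core proteins at the cell surface and in the matrix. The 10 genes described here encode enzymes that edit the sulfate pattern of this chain and the main cores that carry it, and they were taken by name out of 32040 gene symbols measured in supporting cells of the mouse fetal gonad. Sulf1 was chosen because its level is low in XY cells after E11.5 (E marks the embryonic day). It was thus selected on its measured counts and TPM in the XY groups, so its XX to XY differences and its course in XY cells are given as a description with no test. The other 9 genes, Sulf2, Gpc1, Gpc3, Gpc4, Gpc6, Sdc1, Sdc2, Sdc4 and Hs6st2, were listed with it as family members or partners in the same pathway. All 10 passed the filter on low counts.

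RNA came from 24 bulk libraries in 8 groups of 3. XX pre-granulosa cells, the precursors of the ovarian follicle cells, were sorted by flow cytometry from the Tg(Enh8-mCherry) mouse line at 4 stages, the first at E11.5, then E12.5 and E13.5, and the last at E15.5, and XY Sertoli cells, the supporting cells of the testis, were sorted from the SOX9-IRES-GFP line at the same 4 stages. The labels name no other allele or agent, and they do not say whether gonads were pooled or whether libraries of a group came from separate litters. The p-values thus weigh each difference only against the spread between these libraries, estimated over all 24 together. Sex, reporter line and fluorescent protein differ together in each XX to XY comparison and cannot be told apart. For replicate 1 of XX E13.5, the title and the stage field differ (E13.5 and E12.5), and it was treated as an E13.5 library, as titled.

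Chains start on a linker sugar, are polymerised, and are then N-sulfated and O-sulfated in the Golgi. Sulf1 and Sulf2 are secreted sulfatases that remove 6-O-sulfate groups from finished chains, and Hs6st2 is one of the Golgi enzymes that add them. Glypicans (Gpc genes) are cores anchored to the membrane by a lipid, and syndecans (Sdc genes) are cores that span it. Their chains bind growth factors such as FGF, WNT, hedgehog and BMP ligands, families known to act in the fetal gonad, and the position of 6-O-sulfates affects that binding.

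Levels are given as CPM, counts scaled to one common library size after TMM normalisation, and differences are log2 values with their standard error (SE) from an edgeR quasi-likelihood fit over 16190 genes, with Benjamini-Hochberg adjusted p-values that cover all of these genes. A gene is called at an adjusted p under 0.05. Levels of different genes are compared only as TPM, a share of all transcripts that is scaled by transcript length. Library totals ranged from 11275251 to 37256881 counts, and 3 counts corresponded to between 0.0774 and 0.26 CPM. Bulk RNA cannot tell fewer cells of a type from less RNA per cell.

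The cells carried the markers of their labels. Summed over 6 Sertoli genes, the XY libraries held 1410 to 9800 CPM and the XX libraries 60.2 to 264 CPM, and Sox10 was listed at 0 in XX from E12.5. Sox9, the gene of the XY reporter, is among the 6, so its level is tied to the sort. In the XY E11.5 libraries it held 1783, 2127 and 1208 CPM of sums of 2094, 2573 and 1406 CPM. Amh had a mean of 26.3 CPM there. Over 6 pre-granulosa genes, the XX libraries held 402 to 1380 CPM and the XY libraries 3.1 to 119 CPM, and Foxl2 was listed at 0 in XY E13.5. RNA of other cells was also measured, most at E11.5. The 6 hemoglobin and other erythroid genes summed at E11.5 to 3230 to 25900 CPM in XX against 10.5 to 22.6 CPM in XY, and 6 immune genes to 94 to 262 against 0.272 to 1.62 CPM. XX remained higher at the later stages, at 195 to 1210 against 16.4 to 133 CPM for the erythroid and 20.8 to 37.3 against 0.187 to 1.42 CPM for the immune genes, and their part in the differences between the sexes was not tested. The 5 stromal genes (Pdgfra, Nr2f2, Tcf21, Dlk1 and Col1a1, none at 0 in any group) summed at E11.5 to 401 to 2250 CPM in XX and 684 to 1140 in XY, then to 199.7 to 360 in later XX and 70.5 to 124 in later XY libraries. The third XX E11.5 library had the highest erythroid and stromal sums. Summed germ cell genes were highest at E15.5, at 99.7 to 164 CPM in XX and 40.7 to 71.8 CPM in XY. Endothelial sums lay between 14.1 and 47.8 CPM, with Cldn5 at 0 in XY E13.5. They overlapped between the sexes at E11.5, and later held 29.6 to 47.8 CPM in XX and 14.8 to 26.5 CPM in XY. Steroidogenic sums lay between 58.9 and 345 CPM and overlapped at E11.5 and E12.5. They held 193 to 208 CPM in XX E13.5 and 84.9 to 89.4 in XY E13.5, and 293 to 322 in XX E15.5 and 60.2 to 102 in XY E15.5. The part of either in the differences between the sexes was not tested. The 5 genes shared by both kinds of supporting cell summed to between 750 and 2710 CPM.

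Promoter sequence was available here for 6 of the 10 genes, from RefSeq on GRCm38.p6. The 250 bases before a transcript start are printed for Sulf2, Gpc3 and Sdc4, because only these 3 windows held no exon base in the annotation. Some genes had more than 1 window. A second Sulf2 window, at chr2:166155286-166155535, held 33 exon bases and is not printed or counted for motifs. Each is written 5′ to 3′ on the gene's own strand, which is the minus strand for all 3, with matches to the GC box GGGCGG or its reverse complement CCGCCC in capitals. The Sulf2 window lies at chr2:166155684-166155933 and the Gpc3 window at chrX:52613975-52614224, both before the annotated gene. The Sdc4 window lies at chr2:164443189-164443438, inside the span of the gene in GENCODE M21 but outside its exons.
Sulf2: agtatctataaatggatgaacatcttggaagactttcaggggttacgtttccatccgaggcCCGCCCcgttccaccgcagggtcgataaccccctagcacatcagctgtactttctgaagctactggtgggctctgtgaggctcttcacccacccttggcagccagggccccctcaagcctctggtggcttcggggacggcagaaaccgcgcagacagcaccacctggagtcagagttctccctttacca
Gpc3: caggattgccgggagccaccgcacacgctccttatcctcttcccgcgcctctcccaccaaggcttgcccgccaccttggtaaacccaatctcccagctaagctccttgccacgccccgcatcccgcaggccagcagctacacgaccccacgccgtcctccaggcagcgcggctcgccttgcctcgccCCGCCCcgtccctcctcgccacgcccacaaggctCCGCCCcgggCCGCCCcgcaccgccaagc
Sdc4: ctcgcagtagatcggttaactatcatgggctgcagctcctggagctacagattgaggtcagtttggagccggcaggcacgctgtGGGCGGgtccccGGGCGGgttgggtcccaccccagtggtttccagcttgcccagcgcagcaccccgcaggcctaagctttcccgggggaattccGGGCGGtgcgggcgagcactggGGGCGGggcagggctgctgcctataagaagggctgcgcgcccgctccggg
The GC box, a motif common in promoters without a TATA box, matched once in Sulf2, at 3 places in Gpc3 and at 4 in Sdc4, counting both strands, and 32.7% of all 32851 windows of this length held at least 1 match. GC content was 57.2% in Sulf2, 71.6% in Gpc3 and 68% in Sdc4, against a median of 52.4% over all windows. The letters TATAAA matched 1 time in Sulf2 and in neither other window (12.4% of windows held a match). The GATA core GATAA, which cannot share letters with TATAAA, matched 1 time in Sulf2, 1 time in Gpc3 and 0 times in Sdc4 (22.6% of windows), and the SOX core ACAAT matched in none of the 3 (27.7% of windows). These matches describe letters in these windows only.

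**Figure D1:**
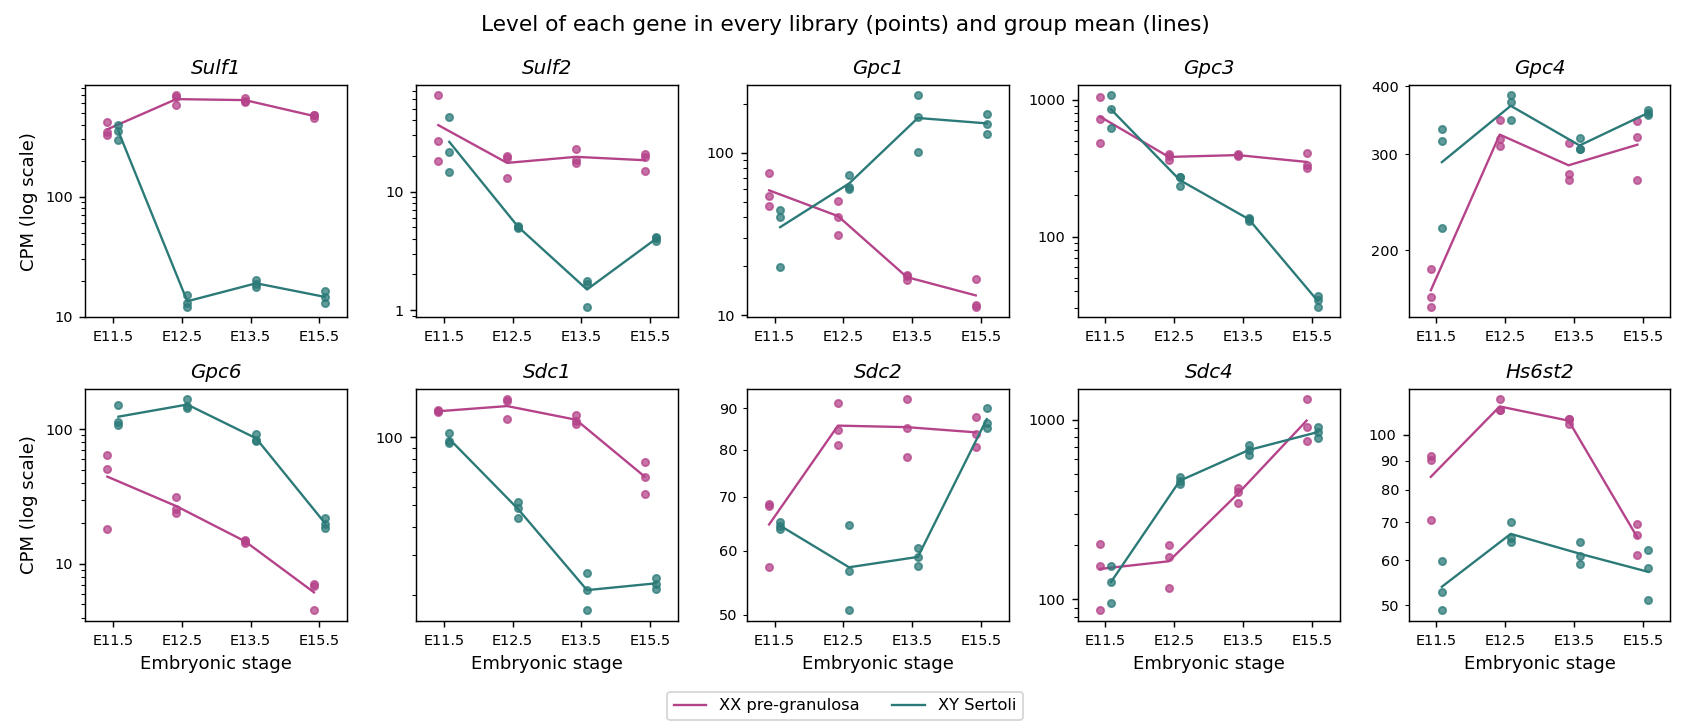
Level of each of the 10 genes in every library (points, CPM on a log axis whose range differs between panels) at the 4 embryonic stages, with lines through the group means, for XX pre-granulosa and XY Sertoli cells. Sulf1 and Gpc3 start close together in the sexes and separate, Gpc1 crosses over, and Sdc4 ends close together.

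Sulf1, the extracellular 6-O-endosulfatase on chromosome 1 (chr1:12692277-12861192, GRCm38, plus strand), was at a similar level in both sexes at E11.5 and differed by a large factor afterwards. The 3 XX libraries held 324, 422 and 349 CPM at E11.5 and 698, 581 and 674 CPM in the E12.5 group. At E13.5 they held 670, 628 and 619 CPM, and at E15.5 478, 484 and 449 CPM. The XY libraries held 356, 300 and 397 CPM at E11.5, then 13.1, 12.1 and 15.1 CPM in the E12.5 group, 20.4, 18.7 and 17.8 CPM in the E13.5 group and 16.3, 13.1 and 14.5 CPM in the E15.5 group. The sexes overlapped at E11.5 and were far apart at each later stage, where the lowest XX library was above the highest XY library. The mean XX level was 48.5 times the XY level at E12.5, 33.7 times at E13.5 and 32.1 times at E15.5, values that the choice of this gene used.

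The course of Sulf1 within XX cells was not part of that choice and was tested. Sulf1 rose from E11.5 to E12.5 by 0.84 on the log2 scale (SE 0.114, edgeR adjusted p = 2.52e-05), did not pass the test from E12.5 to E13.5 (-0.03, adjusted p = 0.882), and fell by 0.44 to E15.5 (SE 0.113, adjusted p = 0.00686). The libraries did not overlap across the first and the last of these steps. Summed stromal markers were lower at E12.5 than at E11.5 in both sexes, while Sulf1 was higher in XX and lower in XY, and their part in the XY values was not tested. Residual Sulf1 in XY cells, between 12.1 and 20.4 CPM, was well above the CPM of 3 counts.

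Sulf2, the second secreted 6-O-endosulfatase (chr2:166073089-166155663, minus strand), was also lower in XY than in XX cells from E12.5, at a much lower level throughout. XX libraries held 26.4, 17.9 and 64.4 CPM at E11.5, 20.1, 19.2 and 13.1 CPM in the E12.5 group, 18.5, 17.48 and 22.8 CPM in the E13.5 group and 14.9, 19.6 and 20.5 CPM in the E15.5 group. XY libraries held 14.5, 21.5 and 42.7 CPM at E11.5, 5.14, 4.96 and 5.03 CPM in the E12.5 group, 1.66, 1.75 and 1.07 CPM in the E13.5 group and 3.82, 4.04 and 4.11 CPM in the E15.5 group. The sexes overlapped at E11.5 and at no later stage. The XX minus XY difference was 0.46 at E11.5 (SE 0.358, adjusted p = 0.316), 1.79 at E12.5 (SE 0.388, adjusted p = 0.000488), 3.72 at E13.5 (SE 0.442, adjusted p = 3.42e-07) and 2.21 at E15.5 (SE 0.404, adjusted p = 6.41e-05).

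In XY cells Sulf2 fell by 2.38 from E11.5 to E12.5 (SE 0.39, adjusted p = 3.68e-05) and by 1.77 to E13.5 (SE 0.446, adjusted p = 0.00952), then rose by 1.43 to E15.5 (SE 0.457, adjusted p = 0.0302). The 3 XY E15.5 libraries stood above the 3 XY E13.5 libraries, at a level of a few CPM. The last rise missed the threshold without any 1 of the 6 libraries of its groups (1.21 to 1.56, adjusted p from 0.0556 to 0.137), with no filter on low counts (adjusted p = 0.0651) and on the log2(TPM + 1) scale (0.81, adjusted p = 0.118). Without the third XY E13.5 library, the fall to E13.5 missed the threshold (-1.53, adjusted p = 0.0669). In XX cells the fall from E11.5 to E12.5 passed the test (-1.05, adjusted p = 0.0316) but rested on the third XX E11.5 library, the one with the highest stromal and erythroid sums, and was -0.34 without it (adjusted p = 0.445). It also missed the threshold in 5 of 9 other settings. In each sex at E11.5 the order of the 3 libraries by Sulf2 was also their order by summed stromal markers (756, 401 and 2250 CPM in XX and 684, 944 and 1140 CPM in XY). It was their order by immune sums too (154, 94 and 262 CPM in XX and 0.272, 0.49 and 1.62 CPM in XY). The erythroid sums followed it in XX and the endothelial sums in XY. The order thus does not single out 1 kind of cell, and the part of these cells in the Sulf2 values was not tested. Without the third XY E11.5 library, the E11.5 difference between the sexes passed the threshold (1.01, adjusted p = 0.0262). Exons of Sulf2 overlap those of Ncoa3 on the opposite strand, and reads there cannot be assigned, since the use of strand is not given in the sources used here.

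Per transcript length, Sulf1 made up most of the sulfatase RNA in every group. The summed TPM of both genes was 139 ± 11.4 (SD, n = 3) in XX E11.5 and 134 ± 23.1 in XY E11.5. At the 3 later stages it was 233 ± 25, 195 ± 9.93 and 152 ± 14 in XX, and in XY 6.65 ± 0.465, 6.72 ± 0.164 and 7.48 ± 0.955 TPM. Sulf2 held 11.1% of the XX sum at E11.5 and 3.13% to 3.91% later, and 8.17%, 29.9%, 8.59% and 24% of the XY sum in the order of the stages. The larger Sulf2 shares in XY were shares of the small XY sums.

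**Figure D2:**
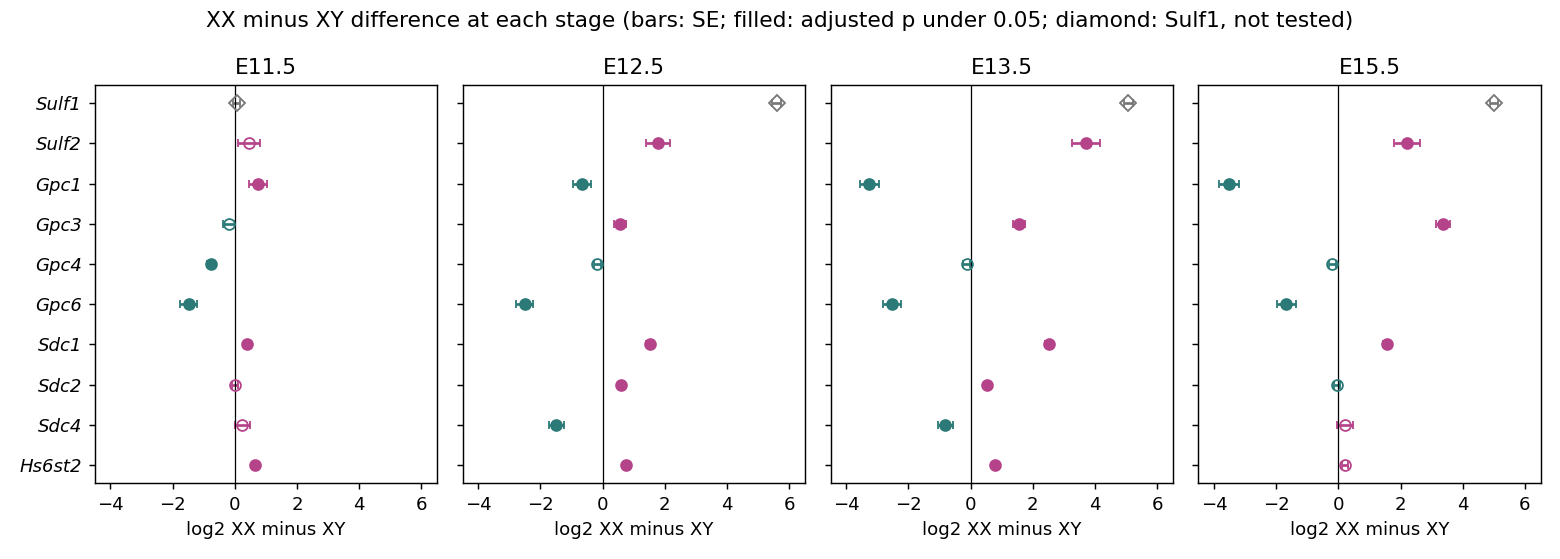
XX minus XY log2 difference of each gene at the 4 stages (points, bars are the SE of the fit over 24 libraries), with filled points for adjusted p under 0.05 and a grey diamond for Sulf1, whose difference is a description. At E13.5, Sulf2 (3.72) and Sdc1 (2.52) lie farthest toward XX among the tested genes, and Gpc1 (-3.26) and Gpc6 (-2.54) farthest toward XY.

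Of the 9 genes other than Sulf1, 5 were called between the sexes at E11.5, namely 3 toward XX and 2 toward XY. Of all genes tested, 42% were called there, 21.4% toward XX and 20.6% toward XY. The count was 8 of 9 at E12.5, 5 higher in XX (30.5% of all genes) and 3 higher in XY (31.5%), with 62.1% of all genes called. It was again 8 of 9, 5 and 3, in E13.5 cells, where 66.1% of all genes were called, 32.8% and 33.3% in these directions. In E15.5 cells it was 5 of 9, 3 higher in XX (34.9% of all genes) and 2 higher in XY (34.4%), with 69.4% of all genes called. With 9 genes these shares are not far from the background. The median size of the difference, whichever its direction, was 0.46, 0.75, 1.55 and 1.57 on the log2 scale from the first stage to the last, against 0.41, 0.65, 0.77 and 0.88 over all genes tested. Sdc1, Gpc6 and Gpc1 were called at all 4 stages, and Gpc1 changed direction between the first and the second.

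Among the glypicans, Gpc3 fell in XY cells at every step and Gpc1 rose there, while Gpc4 stayed within a narrow range in both sexes after E11.5. Gpc3, which is known to restrain hedgehog signalling and body growth, lies on the X chromosome (chrX:52272426-52613950, minus strand). Its XX libraries held 726, 483 and 1051 CPM at E11.5, 361, 387 and 400 CPM in the E12.5 group, 389, 393 and 401 CPM in the E13.5 group and 333, 316 and 406 CPM in the E15.5 group. Its XY libraries held 625, 854 and 1075 CPM at E11.5, 233, 271 and 273 CPM in the E12.5 group, 131, 134 and 138 CPM in the E13.5 group and 34.5, 36.7 and 30.8 CPM in the E15.5 group. The sexes overlapped at E11.5, and from E12.5 each XX library was above each XY library.

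In XY cells Gpc3 fell by 1.72 to E12.5 (SE 0.199, adjusted p = 3.5e-07), by 0.95 to E13.5 (SE 0.196, adjusted p = 0.0021) and by 1.98 to E15.5 (SE 0.205, adjusted p = 8.04e-07). In XX cells it fell once, by 0.98 to E12.5 (SE 0.195, adjusted p = 0.000743), and the later steps of 0.04 and -0.17 did not pass (adjusted p = 0.889 and 0.573). That XX fall missed the threshold when only the libraries of its 2 groups were fitted (-1.01, adjusted p = 0.0556). The XX minus XY difference went from -0.18 at E11.5 (SE 0.193, adjusted p = 0.487) to 0.56 at E12.5 (SE 0.194, adjusted p = 0.0161), 1.56 at E13.5 (SE 0.199, adjusted p = 7.26e-07) and 3.37 at E15.5 (SE 0.215, adjusted p = 1.63e-11), a 10.3-fold higher XX level at the end. As for Sulf2, the E11.5 libraries of each sex stood in the same order by Gpc3 and by summed stromal and immune markers. The part of those cells in the first step was not tested. After E12.5 the stromal sum of XY libraries lay between 70.5 and 124 CPM, and the part of stromal RNA in the later Gpc3 steps was not tested either. Without the third XX E11.5 library, Gpc3 was called higher in XY at E11.5 (-0.51, adjusted p = 0.0259), and without the second XX or the third XY library of that stage its sign turned (0.05, adjusted p = 0.824, and 0.04, adjusted p = 0.901).

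Gpc1, a glypican known as a co-receptor for FGF ligands (chr1:92831645-92860779, plus strand), took the opposite course in the sexes. XX libraries held 46.8, 54.5 and 74.6 CPM at E11.5, 31.2, 50.5 and 40.5 CPM in the E12.5 group, 17.3, 16.5 and 17.7 CPM in the E13.5 group and 11.3, 16.8 and 11.6 CPM in the E15.5 group. XY libraries held 19.7, 44.5 and 40.3 CPM at E11.5, 61.4, 59.7 and 72.8 CPM in the E12.5 group, 101, 165 and 225 CPM in the E13.5 group and 174, 151 and 130 CPM in the E15.5 group. The groups did not overlap at any stage, with XX higher at E11.5 and XY higher from E12.5. At E13.5 the XY level was 9.55 times the XX level (-3.26, SE 0.305, adjusted p = 1.15e-08) and at E15.5 the difference was wider still (-3.52, SE 0.311, adjusted p = 3.84e-09).

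The earlier Gpc1 differences were near the threshold. At E11.5 the difference of 0.75 (SE 0.278, adjusted p = 0.0359) was lost without the second or the third XX E11.5 library (0.79, adjusted p = 0.0589, and 0.53, adjusted p = 0.17) or the first XY E11.5 library (0.45, adjusted p = 0.194), and in 5 of 9 other settings of the fit (adjusted p from 0.0555 to 0.154). At E12.5 the difference of -0.67 (SE 0.278, adjusted p = 0.0436) was lost in 6 of 9 other settings and in 19 of 24 fits that left out 1 library, down to -0.44 without the first XX E12.5 library (adjusted p = 0.235). In XY cells Gpc1 rose by 0.89 to E12.5 (adjusted p = 0.011, or 0.53 and adjusted p = 0.105 without the first XY E11.5 library) and by 1.34 to E13.5 (SE 0.278, adjusted p = 0.00228). In XX cells it fell by 1.25 from E12.5 to E13.5 (SE 0.291, adjusted p = 0.00272). Exons of Gpc1 overlap those of Ankmy1 on the opposite strand.

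Gpc6, a glypican known for its part in skeletal growth (chr14:116925315-117976544, plus strand), was higher in XY cells at all 4 stages and was lower in both sexes at the end than at the start. XX libraries held 51.1, 18.1 and 64.2 CPM at E11.5, 23.9, 25.5 and 31.3 CPM in the E12.5 group, 14.3, 15 and 14.8 CPM in the E13.5 group and 4.51, 6.86 and 7.08 CPM in the E15.5 group. XY libraries held 108, 113 and 151 CPM at E11.5, 143, 167 and 148 CPM in the E12.5 group, 92.1, 82.7 and 82.2 CPM in the E13.5 group and 19.7, 22.1 and 18.4 CPM in the E15.5 group. No XX library reached the level of an XY library of its stage. The differences were -1.49 (SE 0.271, adjusted p = 0.00019), -2.51 (SE 0.281, adjusted p = 1.82e-07), -2.54 (SE 0.289, adjusted p = 1.85e-07) and -1.68 (SE 0.306, adjusted p = 5.91e-05) from E11.5 to E15.5. From E13.5 to E15.5 Gpc6 fell by 2.09 in XY (SE 0.281, adjusted p = 2.15e-05) and by 1.23 in XX (SE 0.309, adjusted p = 0.00614).

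The earlier steps of Gpc6 within a sex were less steady. The XX fall to E12.5 (-0.72, adjusted p = 0.0464) was -0.36 without the third XX E11.5 library (adjusted p = 0.354), and it was lost in 6 of 9 other settings, among them the replicate number as a block (-0.70, adjusted p = 0.0547). The XX fall from E12.5 to E13.5 (-0.87, adjusted p = 0.0234) was -0.71 without the third XX E12.5 library (adjusted p = 0.102), and it also missed the threshold without any 1 of the 3 XX E13.5 libraries, with values between -0.85 and -0.87. The XY fall over the same step (-0.83, adjusted p = 0.0362) was -0.75 without the second XY E12.5 library (adjusted p = 0.139), and it missed the threshold without any other of the 6 libraries of its groups and in 4 of 9 other settings. At E11.5 Gpc6 too followed the order of the stromal and immune sums within each sex.

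Gpc4 lies beside Gpc3 on the X chromosome (chrX:52053021-52165252, minus strand), with 107 kb and no other protein-coding gene between them. XX libraries held 164, 185 and 158 CPM at E11.5 and between 269 and 347 CPM at later stages, while XY libraries held 317, 333 and 220 CPM at E11.5 and between 307 and 385 CPM later. Only the E11.5 difference was called (-0.78, SE 0.12, adjusted p = 2.49e-05), and the later ones were -0.18, -0.12 and -0.19 (adjusted p = 0.21, 0.382 and 0.152). In XX cells Gpc4 rose by 0.95 from E11.5 to E12.5 (SE 0.121, adjusted p = 1.34e-05). In XY cells its rise over that step (0.34, adjusted p = 0.0201) was 0.10 without the third XY E11.5 library (adjusted p = 0.459) and missed the threshold in 5 of 9 other settings. At E15.5 the mean levels of these neighbouring genes differed between the sexes by factors of 10.3 for Gpc3, higher in XX, and 1.14 for Gpc4.

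By TPM, the glypican RNA of the sexes came to hold its genes in different proportions. Summed over Gpc1 to Gpc6 it was 699 ± 237 TPM (SD, n = 3) in XX E11.5 and 408 ± 21.9 in XX E15.5, and 924 ± 188 and 290 ± 12.4 in XY. Gpc3 held 77.2% of it in XX E11.5 and 70.1% in XY E11.5, and at E15.5 56.4% in XX and 8% in XY. In XY cells Gpc4 went from 20.7% to 69.6%, Gpc1 from 1.48% to 18.6%, and Gpc6 from 6.53% at E11.5 through 14.3% at E12.5 to 3.2% at E15.5. In XX cells at E15.5, Gpc4 held 41.7%, Gpc1 1.11% and Gpc6 0.625%.

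**Figure D3:**
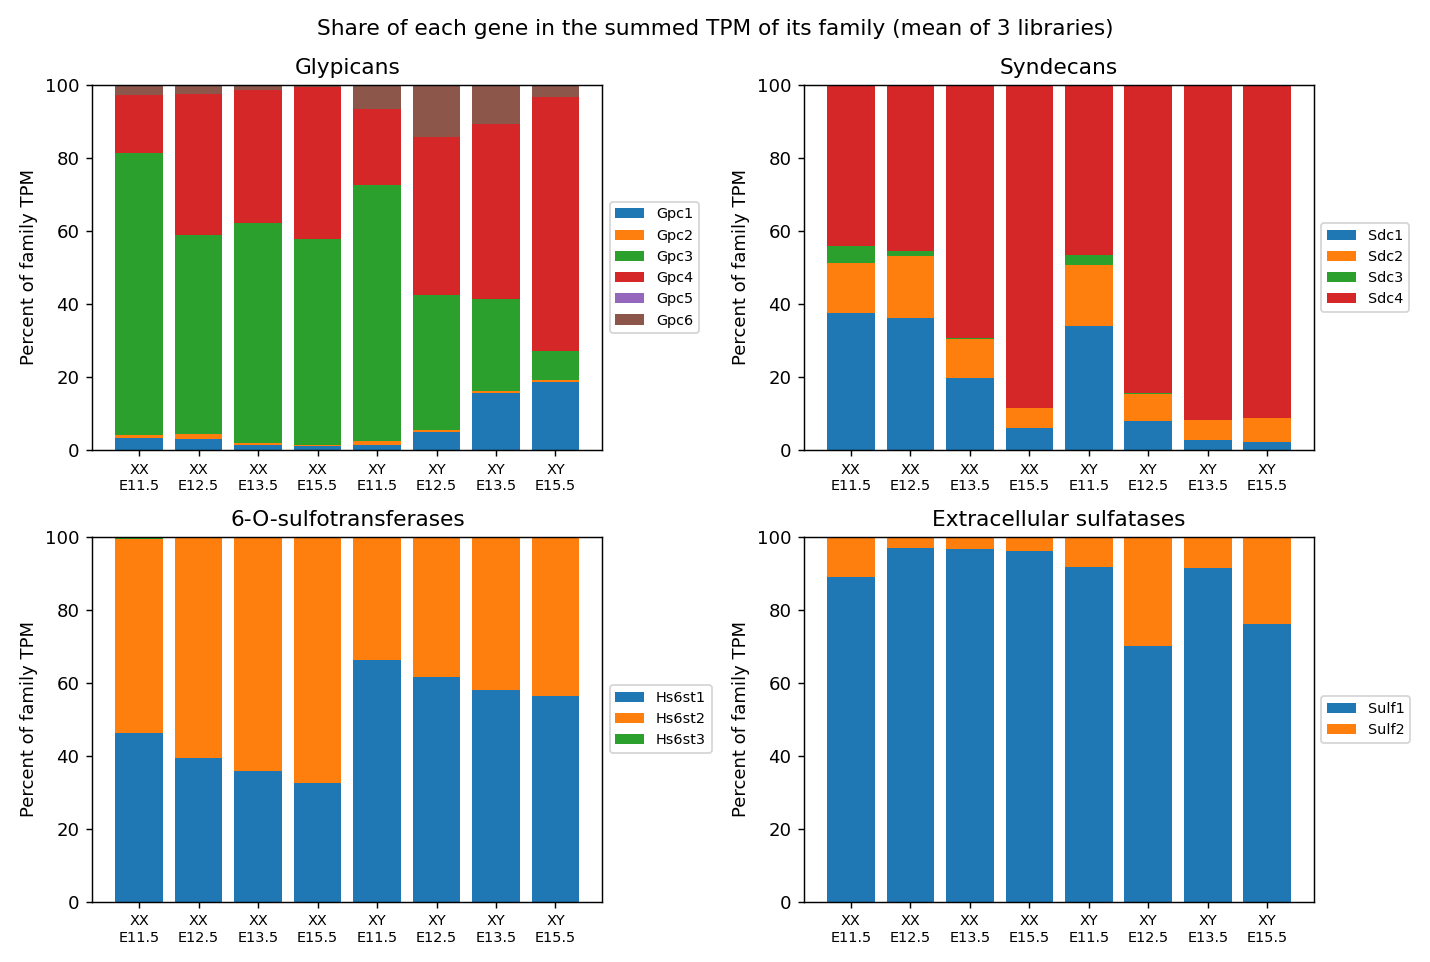
Percent of the summed TPM of each family held by each gene (stacked bars, mean of 3 libraries, axis from 0 to 100) in the 8 groups, for glypicans, syndecans, 6-O-sulfotransferases and extracellular sulfatases. In XY cells the Gpc3 segment shrinks from 70.1% to 8%, and the Sdc4 segment reaches 91.2% in XY and 88.5% in XX at E15.5.

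Among the syndecans, Sdc1 was higher in XX and Sdc4 rose in both sexes. Sdc1, the main syndecan of epithelia (chr12:8771323-8793715, plus strand), held 130, 132 and 129 CPM in the XX E11.5 group, 145, 147 and 120 CPM in the E12.5 group, 126, 115 and 118 CPM in the E13.5 group and 66.9, 77.4 and 56.2 CPM in the E15.5 group. XY libraries held 95.8, 94.6 and 105 CPM at E11.5, 44, 51.5 and 48.5 CPM in the E12.5 group, 25, 20.9 and 17.1 CPM in the E13.5 group and 22.4, 23.9 and 21.2 CPM in the E15.5 group. The sexes did not overlap at any stage. The XX minus XY difference was 0.41 at E11.5 (SE 0.119, adjusted p = 0.00927), 1.52 at E12.5 (SE 0.122, adjusted p = 8.16e-10), 2.52 at E13.5 (SE 0.128, adjusted p = 4.15e-13) and 1.57 at E15.5 (SE 0.126, adjusted p = 5.06e-10). The E11.5 call was lost when only the E11.5 libraries were fitted (0.40, adjusted p = 0.0546).

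In the main fit, Sdc1 fell at different times in the sexes. In XY cells it fell by 1.03 to E12.5 (SE 0.121, adjusted p = 3.69e-07) and by 1.20 to E13.5 (SE 0.124, adjusted p = 1.35e-06), and the last step of 0.11 did not pass (adjusted p = 0.613). In XX cells the steps to E12.5 and E13.5 did not pass (0.08 and -0.20, adjusted p = 0.658 and 0.214), and it fell by 0.84 from E13.5 to E15.5 (SE 0.121, adjusted p = 4.81e-05). With limma on TPM, the XX fall from E12.5 to E13.5 passed in every setting (-0.44, adjusted p from 0.0126 to 0.0206). The later start of the XX fall thus depends on the scale used.

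Sdc4, a broadly expressed syndecan found at cell adhesions (chr2:164424247-164443887, minus strand), was the most abundant core of its family by mean TPM at every stage in both sexes. XX libraries held 153, 203 and 86.7 CPM at E11.5, 201, 173 and 115 CPM in the E12.5 group, 345, 396 and 417 CPM in the E13.5 group and 907, 756 and 1296 CPM in the E15.5 group. XY libraries held 154, 124 and 95.7 CPM at E11.5, 478, 453 and 440 CPM in the E12.5 group, 631, 723 and 676 CPM in the E13.5 group and 794, 904 and 857 CPM in the E15.5 group. The sexes overlapped at E11.5 and at E15.5, and each XY library was above each XX library at E12.5 and E13.5. The difference was -1.49 at E12.5 (SE 0.247, adjusted p = 2.82e-05) and -0.81 at E13.5 (SE 0.243, adjusted p = 0.00622), and it did not pass at E11.5 (0.24, adjusted p = 0.443) or E15.5 (0.21, SE 0.242, adjusted p = 0.442).

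In XY cells it rose by 1.87 from E11.5 to E12.5 (SE 0.25, adjusted p = 2.9e-06), and the later steps of 0.57 and 0.33 did not pass (adjusted p = 0.119 and 0.373), although the 3 libraries of each stage stood above those of the stage before. Fitted with only the libraries of the E12.5 and E13.5 XY groups, the first of these later steps passed (0.59, adjusted p = 0.000542), and so did the last, fitted in the same way (0.33, adjusted p = 0.00155). In XX cells the step to E12.5 did not pass (0.14, adjusted p = 0.695), and Sdc4 rose by 1.25 to E13.5 (SE 0.246, adjusted p = 0.000716) and by 1.35 to E15.5 (SE 0.246, adjusted p = 0.000505). Surface epithelial markers (Upk3b, Krt19, Lgr5, Gng13, Msln and Cdh1, of which Lgr5 is also known in pre-granulosa cells) summed in XX to 99 to 190 CPM at E11.5, 211 to 421 at E12.5, 642 to 644 at E13.5 and 745 to 835 at E15.5. In XY they summed to 214 to 258, 257 to 272, 120 to 131 and 82.8 to 90.2 CPM, with Msln at 0 in E12.5. Their part in the Sdc4 and Sdc1 values was not tested. At E11.5 the libraries of each sex stood by Sdc4 in the reverse of their order by summed stromal and immune markers. The part of those cells in the E11.5 level and the first step of Sdc4 was not tested.

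Sdc2, a syndecan of mesenchymal and endothelial cells (chr15:32920723-33034935, plus strand), varied least, between 50.6 and 92.3 CPM over the 24 libraries. It was higher in XX at E12.5 (0.58, SE 0.0905, adjusted p = 1.1e-05) and at E13.5 (0.53, SE 0.0907, adjusted p = 2.85e-05), and not called at E11.5 (0.00, adjusted p = 0.974) or E15.5 (-0.05, adjusted p = 0.607). XX libraries went from 57.4 to 68.5 CPM at E11.5 to 81.1 to 91.3 CPM at E12.5, a rise of 0.41 (SE 0.0905, adjusted p = 0.00181, or 0.38 and 0.0972 with only those libraries fitted). XY libraries went from 57.4 to 60.5 CPM at E13.5 to 85.2 to 90.1 CPM at E15.5, a rise of 0.57 (SE 0.0906, adjusted p = 0.000112). The XY step from E11.5 to E12.5 did not pass (-0.17, adjusted p = 0.12), but it passed in 6 of 9 other settings, among them DESeq2 (-0.23, adjusted p = 0.0235) and limma on log2(TPM + 1) (-0.37, adjusted p = 0.0031).

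Summed syndecan TPM was 211 ± 24.6 (SD, n = 3) in XX E11.5 and 647 ± 133 in XX E15.5, and 182 ± 9.48 and 569 ± 37.7 in XY. Sdc4 held 44%, 45.5%, 69.3% and 88.5% of it across the 4 stages in XX, and 46.6%, 84.5%, 91.8% and 91.2% in XY. Sdc1 held 37.4%, 36.1%, 19.7% and 5.93% in XX, and 33.9%, 8%, 2.63% and 2.24% in XY. Glypican sums were lower and syndecan sums higher at E15.5 than at E11.5 in both sexes.

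Hs6st2, which transfers sulfate to the 6-O position and so acts against the sulfatases, lies on the same stretch of the X chromosome (chrX:51387212-51681856, minus strand), 371 kb from Gpc4. XX libraries held 90.2, 91.9 and 70.8 CPM at E11.5, 116, 111 and 111 CPM in the E12.5 group, 104, 107 and 107 CPM in the E13.5 group and 61.4, 69.6 and 66.4 CPM in the E15.5 group. XY libraries stayed between 48.9 and 70.2 CPM at all stages. XX libraries were above XY libraries without overlap until E13.5 and overlapped them at E15.5. The difference was 0.65 at E11.5 (SE 0.0984, adjusted p = 2.17e-05), 0.75 at E12.5 (SE 0.0985, adjusted p = 1.18e-06), 0.78 at E13.5 (SE 0.0989, adjusted p = 5.86e-07) and 0.20 at E15.5 (SE 0.0992, adjusted p = 0.076).

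The E15.5 difference of Hs6st2 passed the threshold in 3 of 9 other settings, among them DESeq2 size factors (0.23, adjusted p = 0.0398). It also passed in several fits that left out 1 library, with the largest value without the second XY E15.5 library (0.34, adjusted p = 0.0136). In XX cells Hs6st2 rose by 0.41 to E12.5 (SE 0.0981, adjusted p = 0.00296, or 0.38 and 0.116 with only those 6 libraries fitted) and fell by 0.69 from E13.5 to E15.5 (SE 0.0991, adjusted p = 4.99e-05). In XY cells the rise to E12.5 (0.31, adjusted p = 0.0116) was 0.08 on the log2(TPM + 1) scale (adjusted p = 0.532) and missed the threshold in 5 of 9 other settings in all. Of the summed TPM of the 6-O-sulfotransferases, Hs6st2 held 53.3%, 60.6%, 64.1% and 67.3% in XX, and 33.5%, 38.5%, 42% and 43.5% in XY. Nearly all of the rest was Hs6st1, which was higher in XY cells at all 4 stages, with XX minus XY differences of -0.61, -0.55, -0.59 and -1.18 (adjusted p = 0.000407, 0.00056, 0.000256 and 3.82e-08).

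Between stages in XX cells, 7 of all 10 genes were called at the first step (E11.5 to E12.5), 4 up (16.7% of all genes tested) and 3 down (17.3%), with 34% of all genes called. At the second step (E12.5 to E13.5) it was 3, 1 up (14.2% of all genes) and 2 down (17.4%), with 31.7% called, and at the last step 5, 1 up (12.8%) and 4 down (12.8%), with 25.6% called. Without the third XX E11.5 library the first of these counts was 5. In XY cells, of the 9 genes other than Sulf1, 7 were called at the first step, 4 up (27.1% of all genes) and 3 down (24.8%), with 51.9% called. At the second step it was 5, 1 up (8.02%) and 4 down (8.62%), with 16.6% called, and at the last step 4, 2 up (as 1863 of the 16190 genes were) and 2 down (9.79%), with 21.3% called. Without the third XY E13.5 library the count at the second XY step was 3. Over all 4 stages, 10 of 10 genes changed in XX (74% of all genes) and 9 of 9 in XY (70.3%). The XX minus XY difference depended on stage for 9 of 9 (70.1%).

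The rest of the heparan sulfate pathway was followed in 51 other genes, of which 47 passed the filter on low counts. Between the sexes, 24, 37, 41 and 38 of these 47 were called in the order of the stages, set beside the 42%, 62.1%, 66.1% and 69.4% of all genes. At E11.5 there were 9 higher in XX and 15 higher in XY, and at the later stages 16 and 21, 15 and 26, and 18 and 20. The median size of the difference was 0.43, 0.80, 1.17 and 0.88, against 0.41, 0.65, 0.77 and 0.88 over all genes. When only the E11.5 libraries were fitted, 13 were called at E11.5.

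Where genes of chain initiation and polymerisation were called, most were higher in XY, beside 20.6%, 31.5%, 33.3% and 34.4% of all genes at the 4 stages. Of 7 linker genes, 1, 6, 7 and 7 were called at the 4 stages, and the genes higher in XY were 4 of the 6 called at E12.5 and 6 of 7 at both later stages. Xylt1, which adds the first sugar to the core, held 9.08 ± 0.561 CPM (SD, n = 3) in XX E12.5 and 31.7 ± 1.52 in XY (-1.80, SE 0.154, edgeR adjusted p = 2.01e-09). Pxylp1, the xylose phosphatase that lets the chain be extended, was higher in XX, at 12.9 ± 1.71 CPM in XX E13.5 and 3.48 ± 0.5 in XY (1.87, adjusted p = 1.88e-07), and Xylt2, named after its values were seen, was higher in XX at E12.5 (0.80, adjusted p = 0.00198) and in XY later. Of 5 polymerisation genes, 4 were called at each stage, 3 of them higher in XY. Extl3, which starts the heparan sulfate backbone, held 18.2 ± 2.96 CPM in XX E15.5 and 82.9 ± 6.63 in XY (-2.19, SE 0.176, adjusted p = 5.07e-10). Extl1, a related glycosyltransferase, held 0.604 ± 0.171 and 10.4 ± 0.182 CPM there (-4.10, adjusted p = 2.41e-09).

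The sulfation enzymes were divided. Of 4 tested genes of N-sulfation and epimerisation, 2, 4, 3 and 3 were called at the 4 stages, in both directions. Glce, the epimerase that makes iduronic acid, held 32.1 ± 5.24 CPM in XX E12.5 and 122 ± 11 in XY (-1.93, SE 0.163, adjusted p = 1.75e-09), and Ndst2, an N-deacetylase and N-sulfotransferase, 13.54 ± 0.189 in XX E15.5 and 7.06 ± 0.173 in XY (0.94, adjusted p = 0.000105). Of 8 tested genes of O-sulfation, 6, 6, 7 and 8 were called, and the 1 higher in XY at each stage was Hs6st1. The other 5, 5, 6 and 7 were higher in XX, beside 21.4%, 30.5%, 32.8% and 34.9% of all genes. The median difference of these 8 genes was 1.70, 1.93, 4.20 and 3.93, and with genes at or under 3 counts in each XY library set to their bound it was 1.35, 1.60, 2.42 and 2.09, against a median between -0.01 and 0.05 over all genes. Hs3st4 was at or under 3 counts in each XY library at all 4 stages, so it passed the filter through XX libraries only. Hs3st2 was so low in XY from E12.5 and Hs3st5 from E13.5. Where XY was so low, these genes could be called only toward XX. The counts and medians of this list thus cannot be weighed against those of all genes.

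Apart from Hs2st1 at E15.5, the genes of this list called higher in XX were 3-O-sulfotransferases, which add the rarest sulfate group of the chain. Hs3st3b1 held 42.4, 73.9 and 47.9 CPM in the XX E11.5 group and 90.1, 93.7 and 116 CPM in the E15.5 group, and in XY 17.9, 21.1 and 24.5 CPM at E11.5 and 1.22, 1.80 and 1.33 CPM in the E15.5 group. Its groups did not overlap, and the E15.5 difference was 6.12 (SE 0.223, adjusted p = 2.6e-15). At E11.5 Hs3st1 held 4.92, 15.6 and 2.59 CPM in XX and 21.8, 13.6 and 11.3 in XY, which did not differ past the threshold (-0.98, adjusted p = 0.0553), and it held 80.9 ± 7.84 against 4.297 ± 0.49 CPM at E15.5 (4.24, SE 0.447, adjusted p = 5.07e-08). Hs3st2, Hs3st4 and Hs3st5 were at 1.42 CPM or less on average in every group, so their calls rest on few counts.

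**Figure D4:**
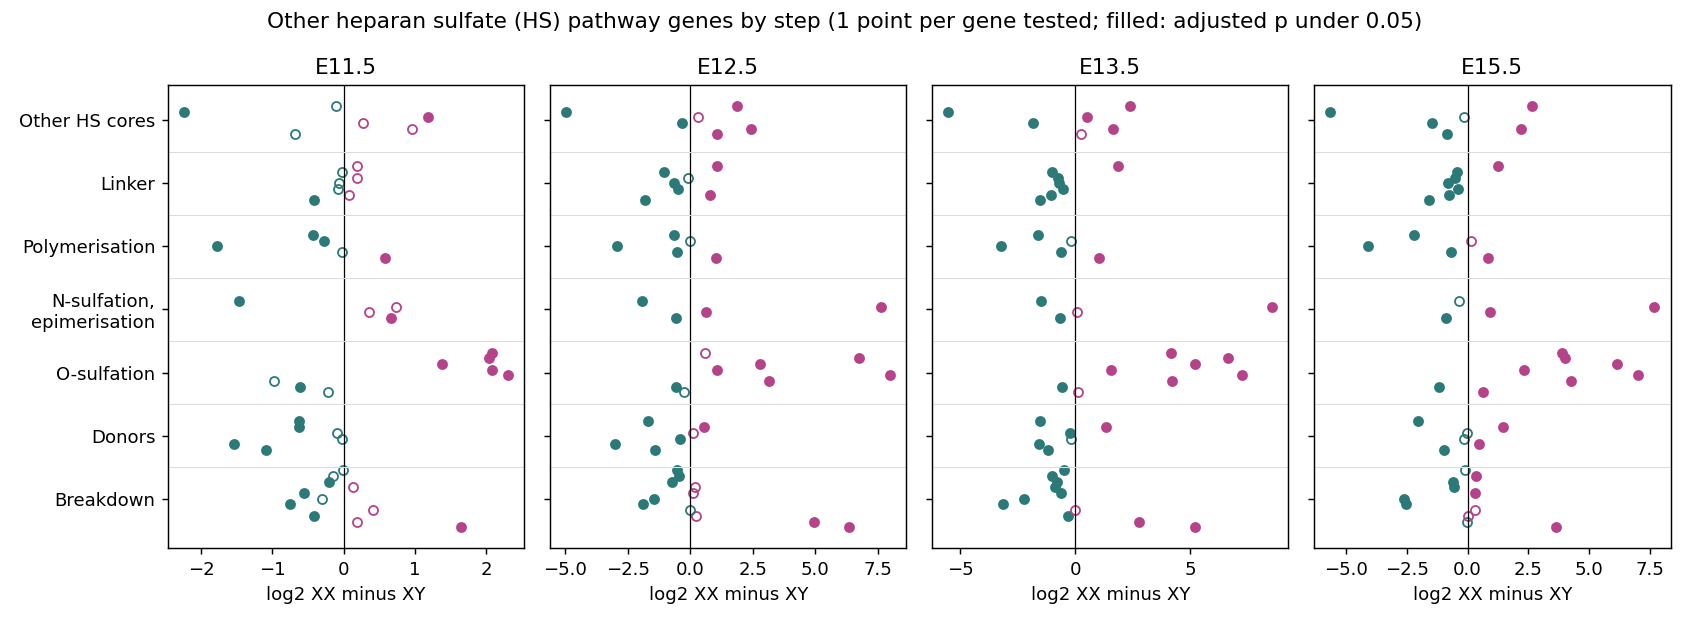
XX minus XY log2 difference of the 47 other heparan sulfate (HS) pathway genes tested, in rows by step of the pathway, at the 4 stages (1 point per gene, filled for adjusted p under 0.05, axis range differs between panels). From E12.5 the linker and polymerisation rows lie mostly to the XY side and the O-sulfation row to the XX side.

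Donor and breakdown genes were called in both directions. Papss2, which makes the sulfate donor, held 6.17 ± 1 CPM in XX E12.5 and 49 ± 2.68 in XY (-2.99, SE 0.14, adjusted p = 1.34e-13), and Slc26a2, a sulfate carrier, 11 ± 1.64 in XX E15.5 and 44.4 ± 3.17 in XY (-2.02, adjusted p = 1.58e-09). Of 6 donor genes, 4, 5, 5 and 4 were called, and the XY side held 4, 4, 4 and 2 of them. Hpse, the heparanase that cuts chains outside the cell and in lysosomes, held 21.3 ± 2.41 CPM in XX E12.5 and 0.256 ± 0.0959 in XY (6.35, SE 0.267, adjusted p = 2.18e-14), where 4 to 8 counts were seen in each XY library. Summed immune markers were 34 to 37.3 CPM in these XX and 0.187 to 1.42 CPM in these XY libraries, and the part of immune cells in the Hpse values was not tested. Sgsh, a lysosomal enzyme of chain breakdown, held 4.69 ± 2.03 in XX E13.5 and 40.2 ± 3.58 in XY (-3.12, adjusted p = 3.73e-10). Of 11 breakdown genes, 5, 7, 10 and 7 were called at the 4 stages, with 4, 5, 8 and 4 higher in XY.

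Among the other cores, Col18a1 stood apart, far higher in XY. This core of collagen XVIII in basement membranes, held 851, 987 and 386 CPM in the XY E11.5 group, 6032, 5960 and 4967 CPM in the E12.5 group, 3082, 2524 and 3478 CPM in the E13.5 group and 1671, 1582 and 1568 CPM in the E15.5 group. XX libraries held 155 to 162 CPM at E11.5 and 27.1 to 37.6 CPM at E15.5, below each XY library at both stages. The E15.5 difference was -5.63 (SE 0.318, adjusted p = 4.52e-12). Tgfbr3 (betaglycan), a co-receptor for TGF-beta and inhibin that can carry heparan sulfate, went in XY cells from 37.7, 46.3 and 41.6 CPM at E11.5 to 1.91, 2.86 and 2.41 CPM in the E15.5 group, where XX libraries held 15.45, 15.4 and 14.4 CPM (2.67, SE 0.185, adjusted p = 5.1e-11). Of 6 other cores tested, 2, 5, 5 and 5 were called at the 4 stages.

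Chondroitin and dermatan sulfate chains use the same linker, and 23 genes of that branch were set beside the heparan sulfate genes. At the 4 stages 9, 18, 16 and 15 of them were called, of which 4, 11, 8 and 10 were higher in XX, against 42%, 62.1%, 66.1% and 69.4% of all genes called, so these counts are near the background. Csgalnact1, the enzyme that commits a linker to chondroitin, held 239, 217 and 281 CPM in XX E12.5 and 0.42, 1.25 and 1.10 CPM in XY (8.04, SE 0.319, adjusted p = 1.63e-14), and at E11.5 already 66.6 to 152 CPM in XX and 7.77 to 10.6 CPM in XY. Dcn (decorin), a matrix core that is also a fibroblast gene, held 13.3 ± 6.49 CPM in XX E12.5 and 0.421 ± 0.114 in XY (4.96, SE 0.791, adjusted p = 1.92e-05). In XY E11.5 libraries Dcn was at 43.3, 55.3 and 83.2 CPM, in the order of their stromal and immune sums. The part of those cells in these values was not tested.

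The genes whose group means followed Sulf1 most closely were named by the Pearson correlation of mean log2(CPM + 1) over the 8 groups, among 6372 genes with at least 50 CPM in a group. They were Serping1 (r = 0.991), Mxra8 (0.99), Myl9 (0.988), Rnaset2b (0.988) and H19 (0.985). Serping1, a complement inhibitor, went from 50.6 to 79.1 CPM between E11.5 and E12.5 in XX, and from 54.6 to 4.43 CPM in XY. Over the same step Myl9, a smooth muscle and stromal myosin light chain, went from 368 to 523 CPM in XX and from 387 to 22.3 CPM in XY. Rnaset2b kept 158 CPM or more in every XY group, so a high correlation did not require a loss of the same depth. These 8 means come from the libraries that chose Sulf1, and the values describe likeness across groups only.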

How the data were processed

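The deposited tables hold expected (estimated) counts and TPM per gene symbol for all 24 libraries, made by the authors from polyadenylated RNA of sorted cells, amplified with a low-input kit, per the labels' protocols. The submitters' processing notes name the build mm10, and the aligner, counter and use of strand are not given in the sources used here. No molecular identifiers are described, so floors cover counting error only. Of the deposited expected counts, 17.5% were not whole and all were rounded. Counts were tested with edgeR 4.0.16 (R 4.3.3): filterByExpr on 8 groups, TMM, robust quasi-likelihood fit with 1 mean per group. Alternatives used DESeq2 1.42.0, limma 3.58.1 on log2(TPM + 1) or log2(TPM + 0.1), other filters, a replicate block, the compared libraries alone, CPM shares and each library left out. All members are described. Per pathway list, values are given for the 2 called genes with the largest difference and at least 10 CPM, and Hs6st1, 3 weak Hs3st genes and Sulf1-like genes are named besides. Hs6st1 and the weak Hs3st genes were singled out after their values were seen. Members and lists were chosen with earlier results of these data known. Coordinates are from GENCODE M21 (GRCm38). The edgeR fit was tested on simulated counts for the XX minus XY comparison at E12.5 only, and the other steps were not. One marker gene of a cell type list is not reported here and was left out of that list's sums.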

Additional observations from a re-analysis of the deposited data

Results flagged for a closer look

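The XX minus XY difference changed with stage for each of the 9 genes other than Sulf1, by the interaction test of the edgeR fit over all 16190 genes, in which 70.1% of all genes passed. These genes were listed with earlier results of the same data known, so the tests are not independent of that choice. The adjusted p was 9.24e-09 for Gpc3, whose difference went from -0.18 at E11.5 to 3.37 at E15.5, and 3.69e-08 for Gpc1, which went from 0.75 to -3.52. It was 2.26e-08 for Sdc1, with its largest difference of 2.52 at E13.5, and 0.000419 for Sulf2, with 3.72 at E13.5. For Sdc4, lower in XX only at E12.5 and E13.5, it was 0.000319, and for Sdc2, higher in XX at those 2 stages, 0.000118. It was 0.00321 for Hs6st2, 0.00475 for Gpc4 and 0.0341 for Gpc6. Leaving out each library in turn gave 8 or 9 of the 9 genes.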

How the results depend on the processing

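With only the compared libraries fitted, the 9 genes called between the sexes at E11.5 went from 5 to 3, pathway genes there from 24 to 13, and the 10 genes called from E11.5 to E12.5 in XX from 7 to 2. That setting, which also changes the normalisation and the genes tested, raised the XY counts of the 9 genes from 5 to 7 between E12.5 and E13.5 and from 4 to 6 between E13.5 and E15.5, where Gpc4 and Sdc4 gained calls at both steps. With limma on log2(TPM + 1) without a filter the E11.5 count was also 3, and with all 3 limma settings the XX count from E12.5 to E13.5 went from 3 to 6. Gpc4, Sdc1 and Hs6st2 gained calls there, each lower at E13.5. The XY count over that step went from 5 to 3 with limma on log2(TPM + 1), with and without the filter, and lay between 3 and 6 with each library left out, 3 being the value without XY E13.5 replicate 3. From CPM in place of TPM, the E15.5 share of Gpc3 in XY was 6%, of Sdc4 in XY 88.5%, and of Hs6st2 69.8% in XX and 47% in XY.

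Signs turned for differences that were not called. For Sdc2 at E11.5 (0.00) the value was -0.021 with no filter, -0.0806, -0.083 and -0.0806 with limma, and -0.00457 with the compared libraries. For Gpc4 at E12.5 it was 0.0261, 0.0263 and 0.0261 with limma. From E12.5 to E13.5 in XX, Sdc2 was 0.0106 with DESeq2 size factors, 0.0089 with DESeq2 and 0.0128 with the compared libraries, Sulf2 was -0.0934, -0.104 and -0.0934 with limma, and Gpc3 was -0.189 in all 3 limma settings. With each library left out, the XX minus XY difference ranged at E11.5 from -0.261 to 1.01 for Sulf2, -0.508 to 0.0545 for Gpc3, -0.0468 to 0.0736 for Sdc2 and -0.0622 to 0.502 for Sdc4, and at E15.5 from -0.0746 to 0.0205 for Sdc2 and -0.0361 to 0.45 for Sdc4. Within XX it ranged from E11.5 to E12.5 from -0.00723 to 0.121 for Sdc1 and -0.125 to 0.439 for Sdc4, from E12.5 to E13.5 from -0.0775 to 0.0364 for Sulf1, -0.0307 to 0.116 for Gpc3 and -0.0693 to 0.079 for Sdc2, and from E13.5 to E15.5 from -0.18 to 0.0375 for Sulf2 and -0.0943 to 0.0399 for Sdc2. Within XY it ranged from -0.0288 to 0.165 for Sdc2 from E12.5 to E13.5, and from -0.387 to 0.182 for Gpc1 and -0.0343 to 0.22 for Sdc1 from E13.5 to E15.5. The cause of these turns was not tested.

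Deviations of same-numbered libraries had a median correlation of 0.00288 over 84 pairs between groups, with values from -0.193 to 0.351. The median was 0.00351 for different numbers. These pairs pool all groups, so they cannot tell whether libraries of 1 stage were paired, and this was not tested. With the replicate block 1 call was lost, the XX fall of Gpc6 to E12.5, and that count was 6 instead of 7. Without XX E13.5 replicate 1, whose stage fields differ, the E12.5 count between the sexes was 7 instead of 8. The call lost was Gpc1, whose value hardly moved (-0.667 against -0.666, edgeR adjusted p = 0.0514 against 0.0436). Most of the other fits that left out 1 library lost that call too, so its loss does not single out this library. Groups of 3 limit the precision of each SD.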
